A study of Arabidopsis thaliana with 24 samples.

Results

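The type-A cytokinin response regulators of Arabidopsis thaliana were followed through the first 12 h after a leaf was cut from the plant. The members were taken by locus from a list of 9 genes, ARR3 (AT1G59940), ARR4 (AT1G10470), ARR5 (AT3G48100), ARR6 (AT5G62920), ARR7 (AT1G19050), ARR8 (AT2G41310), ARR9 (AT3G57040), ARR15 (AT1G74890) and ARR16 (AT2G40670), and all 9 were found among the 37686 loci of the expression tables. ARR17, another gene of the class, was not on that list and is not analysed here. The series addresses early signals in root regeneration from leaf explants. Blades of the first pair of rosette leaves of 12-d-old seedlings were cut off and kept on sucrose-free B5 medium under continuous light, whereas the seedlings had grown on sucrose with a daily dark period. The mutant group was coi1-2 (coi1 below), which carries a defective COI1 jasmonate receptor in every cell, with 2 libraries at each of 8 times from t0 (just cut) over 10 and 30 min and 1, 2, 4 and 8 h to 12 h, 16 in all. The wild type was Col-0 (WT below), with 1 library at each time, 8 in all. Both groups were detached and cultured in the same way, so t0 is the only uncultured stage, and attached leaves of later times are not among these samples. The labels do not say whether the 2 coi1 libraries of a time came from separate plants or cultures, so their spread may be partly technical.

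Cytokinins are adenine-derived hormones that are bound by the histidine kinase receptors AHK2, AHK3 and AHK4. Phosphoryl groups pass from the receptors through AHP phosphotransfer proteins to the type-B response regulators, which are transcription factors. The type-A regulators are primary targets of the type-B factors, carry a phosphate-receiving domain but no DNA-binding domain, and dampen the pathway, so their transcripts are widely used as a readout of cytokinin signalling. In leaves, cytokinin is known for holding back senescence and for promoting cell division and greening.

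Type-B regulators bind a short core, AGATT or AGATC. The 250 bases before the annotated start are shown for the 4 members that fell most in log2(TPM + 1) after detachment. They are also shown for ARR8, which did not stay low. The sequences are read 5′ to 3′ on the gene's strand from the RefSeq copy of the TAIR10.1 assembly. They were located by locus tag, because the expression tables, made on TAIR10, hold no coordinates. Capitals mark AGATT or AGATC on either strand (AATCT and GATCT when read on the strand shown). The windows are chr1:3444361-3444610 for ARR4, chr3:17760951-17761200 for ARR5, chr5:25254319-25254568 for ARR6 and chr1:6579315-6579564 for ARR7, all on the minus strand, and chr2:17221590-17221839 for ARR8 on the plus strand.
ARR4: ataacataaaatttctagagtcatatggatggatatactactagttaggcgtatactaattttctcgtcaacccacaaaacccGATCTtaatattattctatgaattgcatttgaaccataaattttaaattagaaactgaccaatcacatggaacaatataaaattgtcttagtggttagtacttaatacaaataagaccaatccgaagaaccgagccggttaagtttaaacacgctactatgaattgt
ARR5: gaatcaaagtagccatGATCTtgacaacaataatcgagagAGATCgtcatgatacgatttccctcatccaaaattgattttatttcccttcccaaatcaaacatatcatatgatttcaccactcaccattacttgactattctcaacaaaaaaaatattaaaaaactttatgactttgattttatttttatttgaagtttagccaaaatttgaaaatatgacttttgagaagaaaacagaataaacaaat
ARR6: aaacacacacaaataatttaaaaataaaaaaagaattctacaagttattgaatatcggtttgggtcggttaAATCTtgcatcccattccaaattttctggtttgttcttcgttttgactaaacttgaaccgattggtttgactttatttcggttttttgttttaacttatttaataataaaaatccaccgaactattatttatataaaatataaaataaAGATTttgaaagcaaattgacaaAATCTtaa
ARR7: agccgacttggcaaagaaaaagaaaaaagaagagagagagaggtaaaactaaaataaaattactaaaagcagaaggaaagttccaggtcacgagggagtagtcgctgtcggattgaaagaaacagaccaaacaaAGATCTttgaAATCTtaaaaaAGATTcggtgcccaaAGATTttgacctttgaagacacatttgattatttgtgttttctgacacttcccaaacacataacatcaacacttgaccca
ARR8: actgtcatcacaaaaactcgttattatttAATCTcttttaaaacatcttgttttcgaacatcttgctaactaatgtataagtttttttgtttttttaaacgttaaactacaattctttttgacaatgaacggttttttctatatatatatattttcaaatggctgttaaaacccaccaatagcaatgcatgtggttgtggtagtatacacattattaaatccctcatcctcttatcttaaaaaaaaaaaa
ARR4 and ARR8 had 1 match each, ARR5 had 2, ARR6 had 3 and ARR7 had 5, of which 2 overlap in the run AGATCT, which reads the same on both strands. Outside the sequences shown, ARR3 and ARR15 had 1 match, ARR9 had 2 and ARR16 had 5. All 9 windows therefore held the core, and so did 73.2% of the 27443 windows of the same length before protein-coding genes. At least 3 matches were found in 18.3% and at least 5 in 2.52% of those windows. None of the 9 held CACGTG, found in 6.49% of all windows, or AAAATATCT, found in 2.36%. ARR4, which fell strongly, had as many matches as ARR8, and a relation of match number to the later fall was not tested.

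The expression values are TPM, transcript abundances scaled for transcript length and library size, so levels of different genes can be set side by side. They carry no read depth, and the depth behind each value is unknown. Each library had between 17019 and 17840 genes at 1 TPM or more, and the 10 most abundant genes took 8.94% to 14.2% of the total. The COI1 transcript averaged 17.3 ± 3.55 TPM in coi1 (SD, n = 16) and 17.2 ± 6.31 TPM in WT (SD, n = 8); coi1-2 changes the protein, so its transcript does not check the labels. VSP2, a storage protein gene that needs COI1, was at 0.28 to 4.96 TPM in coi1 libraries and at 33.3 to 906 TPM in WT libraries, with no overlap. Leaf mesophyll markers summed to between 21712 and 45354 TPM in coi1 and to between 27767 and 35779 TPM in WT. The root markers PLT1 and PLT2 and the shoot meristem markers STM and WUS were listed at 0 in every library. The other listed markers, WOX5 and CASP1 of root and CLV3 of shoot meristem, reached at most 0.30, 1.22 and 0.13 TPM. CASP1 was at 1.12 and 1.12 TPM (8 h) and 1.22 and 1.05 TPM (12 h) in coi1, against 0.24 and 0.06 TPM in WT. At t0 it was at 0.86 and 0.81 TPM in coi1 and at 0.23 TPM in WT. The coi1 replicates differed most at 30 min, with a root-mean-square log2 difference of 1.05 over 19323 genes, and at t0, with 0.70, against 0.32 to 0.50 at the other times. The library labelled WT 2 h stood apart from its place in the series. Across 19757 genes its log2(TPM + 1) had a Pearson r of 0.986 with the WT 12 h library and 0.974 with WT 8 h, against 0.914 with WT 4 h and 0.838 with WT 1 h. With coi1 it had an r of 0.977 and 0.975 at 12 h, against 0.902 and 0.900 at 2 h. CAB2, a light-harvesting protein gene, was at 119.66 TPM in it, at 6037.3 TPM in WT at 4 h and at 265.41 and 288.86 TPM in WT at 8 h and 12 h, while the coi1 2 h libraries held 8692.34 and 6877.28 TPM. Its label was kept, and the results that rest on it are given with and without it. The WT comparison of late with early times, the early and late comparisons with coi1 and all fits within coi1 do not use it. Some coi1 libraries were closer to another time than to their own replicate. By the same r, 30 min replicate 2 had 0.940 with coi1 1 h replicate 1, against 0.885 with 30 min replicate 1. Replicate 1 of 30 min had 0.957 with coi1 t0 replicate 1. In turn, t0 replicate 1 had 0.965 with WT 10 min, against 0.947 with t0 replicate 2. The transporter gene PUP14 was at 217.79 TPM in t0 replicate 1 and 62.98 TPM in t0 replicate 2. Their labels were kept too.

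In coi1 leaves the members did not behave as 1 group. ARR4, ARR5, ARR6 and ARR7 showed no change past the test in the first 30 min and then sank to a small fraction of their t0 levels by 8 h. ARR15, ARR9 and ARR16 were lower late than early, by smaller amounts on the log2(TPM + 1) scale of the tests. ARR8 was lowest at 1 h and near its t0 level at 12 h, and ARR3 was hardly detected.

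ARR4, whose product also binds the photoreceptor phytochrome B, was the most abundant member in most libraries. In coi1 it stood at 135 and 122 TPM (t0), 59.2 and 85.0 (10 min), 109.7 and 155 (30 min), 79.9 and 80.7 (1 h), 89.8 and 72.3 (2 h), 20.1 and 20.9 (4 h), 7.90 and 6.96 (8 h) and 7.28 and 5.75 (12 h). In WT it stood at 149.7 TPM (t0), 66.8 (10 min), 42.0 (30 min), 39.6 (1 h), 4.93 (2 h), 9.19 (4 h), 7.74 (8 h) and 4.55 (12 h). Both genotypes began above 100 TPM and ended below 10 TPM, but the library labelled WT 2 h was already below 10 TPM, when both coi1 libraries of that time were above 70 TPM. At 4 h, too, the WT library was below 10 TPM and both coi1 libraries were above 20 TPM. Over the late times (4, 8 and 12 h) ARR4 averaged 11.5 ± 7.03 TPM in coi1, against 95.0 ± 33.7 TPM over the early times (10 min, 30 min and 1 h; SD, n = 6 each), 8.27-fold lower. In WT the late times spanned 4.55 to 9.19 TPM and the early times 39.6 to 66.8 TPM, and the late mean was 6.91-fold lower.

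ARR7, which acts in the shoot meristem and whose product restrains cytokinin output there, was the second most abundant member up to 2 h in most libraries. In coi1 it stood at 141 and 26.0 TPM (t0), 16.5 and 23.2 (10 min), 136 and 82.8 (30 min), 56.7 and 43.1 (1 h), 44.4 and 33.6 (2 h), 11.1 and 10.7 (4 h), 5.35 and 1.96 (8 h) and 3.15 and 2.01 (12 h). In WT it stood at 31.3 TPM (t0), 21.8 (10 min), 36.1 (30 min), 75.2 (1 h), 1.27 (2 h), 4.22 (4 h), 1.51 (8 h) and 1.14 (12 h). The coi1 t0 replicates differed more than 5-fold, and in WT the highest value, at 1 h, was next to 1 of the lowest, at 2 h. ARR15, the close paralog of ARR7, was less abundant, at 8.33 and 2.06 TPM (t0), 1.17 and 1.28 (10 min), 2.75 and 16.0 (30 min), 5.55 and 1.99 (1 h), 4.29 and 3.09 (2 h), 0.48 and 0.51 (4 h), 0.30 and 0.34 (8 h) and 0.34 and 0.40 (12 h). In coi1 it, too, was lowest from 8 h on. In WT it was at 2.53 TPM (t0), 0.57 (10 min), 1.67 (30 min), 0.21 (1 h), 0.23 (2 h), 0.13 (4 h), 0.18 (8 h) and 0.23 (12 h), and from 1 h on both coi1 libraries were above the WT library at each time.

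ARR5 and ARR6 are a pair of close paralogs induced within minutes by cytokinin, and ARR5 reporters are a standard marker of the response. ARR5 in coi1 was at 26.8 and 4.32 TPM (t0), 7.18 and 7.61 (10 min), 17.9 and 9.31 (30 min), 4.17 and 6.61 (1 h), 2.49 and 2.35 (2 h), 0.93 and 0.82 (4 h), 0.20 and 0.05 (8 h) and 0.15 and 0.20 (12 h). ARR5 in WT was at 3.94 TPM (t0), 7.81 (10 min), 11.3 (30 min), 3.89 (1 h), 0 (2 h), 0.15 (4 h), 0.06 (8 h) and 0 (12 h). ARR6 in coi1 was at 38.2 and 11.9 TPM (t0), 4.96 and 8.02 (10 min), 27.1 and 29.6 (30 min), 14.8 and 10.4 (1 h), 7.69 and 8.00 (2 h), 1.84 and 1.38 (4 h), 0 and 0.08 (8 h) and 0 and 0.10 (12 h). ARR6 in WT was at 12.3 TPM (t0), 5.23 (10 min), 9.98 (30 min), 4.06 (1 h), 0.06 (2 h), 0.32 (4 h), 0.03 (8 h) and 0.06 (12 h). Both genes were below 0.5 TPM in WT from 2 h on, and so from 4 h on where the library labelled WT 2 h is left aside, while in coi1 they first came below 0.5 TPM at 8 h. The deposited values come from RSEM, which divides reads shared by similar transcripts, so a part of a level can belong to the paralog. ARR6 also overlaps AT5G62910 on the opposite strand, and whether counting used the strand is not given in the sources used here; AT5G62910 held 9.53 to 28.6 TPM in all 24 libraries while ARR6 was down to 0.

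**Figure D1:**
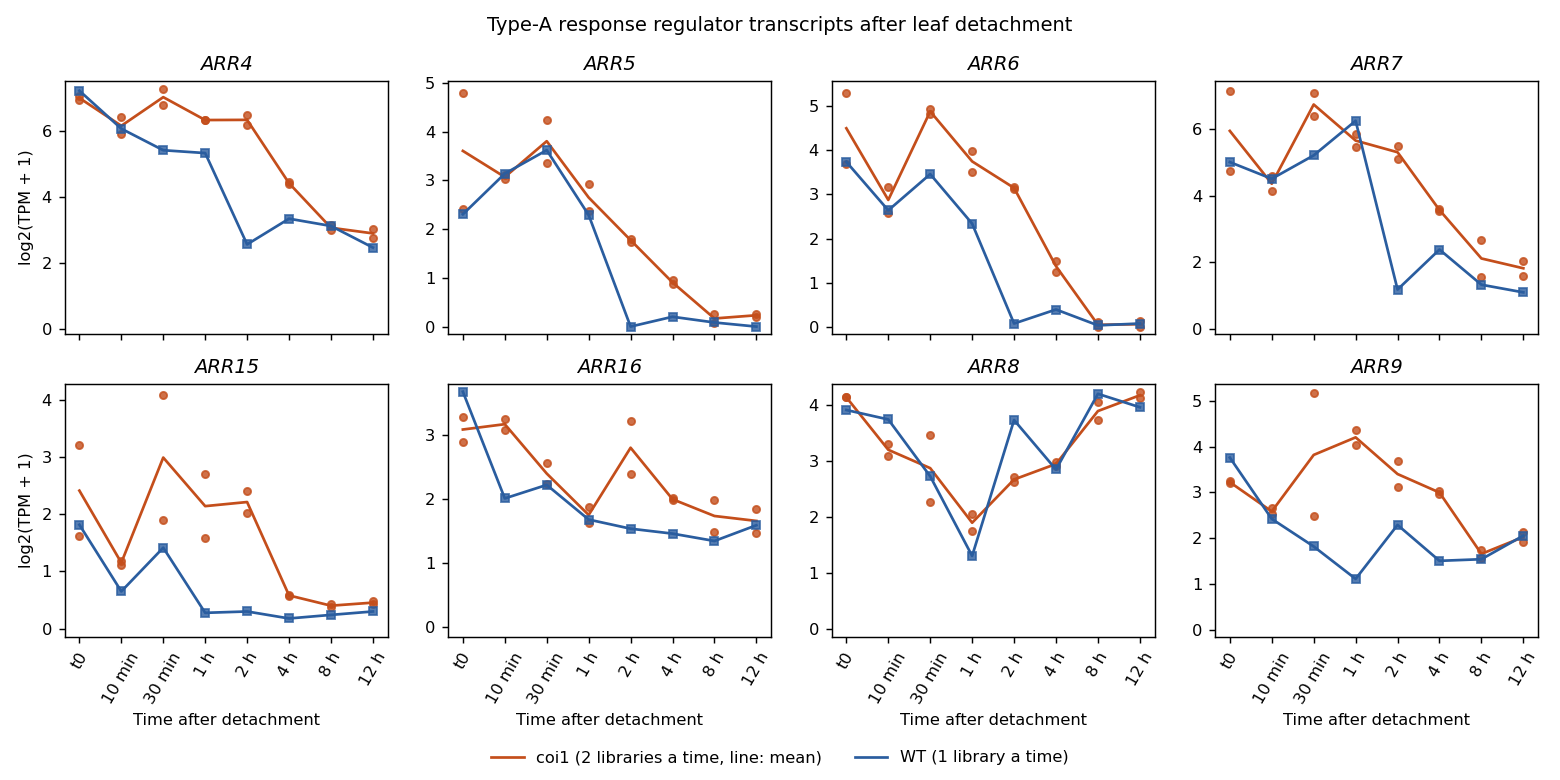
Level of 8 type-A regulators, as log2(TPM + 1), against time after detachment. Orange points are the 2 coi1 libraries of a time, with a line through their mean, and blue squares are the single WT library. ARR4, ARR5, ARR6 and ARR7 are low in the library labelled WT 2 h, when both coi1 libraries are higher, and ARR8 dips at 1 h in both genotypes.

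ARR8 and ARR9, a further pair of paralogs that respond to added cytokinin less than the others, took different courses. ARR8 in coi1 was at 16.5 and 16.5 TPM (t0), 7.48 and 8.87 (10 min), 3.82 and 10.0 (30 min), 3.12 and 2.34 (1 h), 5.53 and 5.15 (2 h), 6.87 and 6.49 (4 h), 12.2 and 15.5 (8 h) and 16.3 and 17.6 (12 h). ARR8 in WT was at 14.0 TPM (t0), 12.3 (10 min), 5.59 (30 min), 1.46 (1 h), 12.2 (2 h), 6.17 (4 h), 17.3 (8 h) and 14.5 (12 h). It was lowest at 1 h in both genotypes, and the 8 h and 12 h libraries were near the t0 level. The library labelled WT 2 h was above 12 TPM, nearer to WT at 8 h and 12 h than at 1 h or 4 h, whereas both coi1 2 h libraries were under 6 TPM. ARR9 in coi1 was at 8.49 and 8.21 TPM (t0), 4.74 and 5.29 (10 min), 4.58 and 34.7 (30 min), 19.6 and 15.4 (1 h), 11.8 and 7.73 (2 h), 7.16 and 6.83 (4 h), 2.35 and 1.99 (8 h) and 2.79 and 3.40 (12 h). ARR9 in WT was at 12.6 TPM (t0), 4.37 (10 min), 2.54 (30 min), 1.17 (1 h), 3.90 (2 h), 1.85 (4 h), 1.92 (8 h) and 3.17 (12 h). The 30 min replicates of coi1 differed more than 7-fold for ARR9, and both coi1 libraries of 1 h were above every WT library. ARR8 and ARR9 each overlap an antisense long noncoding RNA, AT2G09250 with a median of 0.055 TPM and a highest value of 13.3 TPM, and AT3G08825 with a highest value of 1.97 TPM, so reads at these loci may be shared.

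ARR16, which has been linked to the bending of roots towards water and to the stomatal lineage, was at 6.40 and 8.65 TPM (t0), 7.45 and 8.48 (10 min), 3.69 and 4.89 (30 min), 2.08 and 2.67 (1 h), 8.22 and 4.23 (2 h), 2.94 and 3.03 (4 h), 2.95 and 1.80 (8 h) and 2.59 and 1.77 (12 h) in coi1. In WT it was at 11.7 TPM (t0), 3.02 (10 min), 3.65 (30 min), 2.20 (1 h), 1.90 (2 h), 1.75 (4 h), 1.54 (8 h) and 2.01 (12 h). Its decline was shallow: it remained between 1.54 and 3.03 TPM in every library from 4 h on. ARR3, the paralog of ARR4, was at 0 to 0.17 TPM in coi1 and at 0 to 0.16 TPM in WT and entered no test.

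Summed over all 9 members, coi1 leaves held 380 and 199 TPM at t0, 109 and 148 TPM (10 min), 305 and 343 TPM (30 min), 186 and 163 TPM (1 h), 174 and 136 TPM (2 h), 51.4 and 50.7 TPM (4 h), 31.3 and 28.7 TPM (8 h) and 32.6 and 31.4 TPM (12 h). WT leaves held 238 TPM at t0, 122 TPM (10 min), 113 TPM (30 min), 128 TPM (1 h), 24.5 TPM (2 h), 23.8 TPM (4 h), 30.3 TPM (8 h) and 25.6 TPM (12 h). The make-up of the sum turned over as well. ARR4 made up 22.3% and 18.3% of it in coi1 at 12 h, against 35.5% and 61.1% at t0, while ARR8 made up 50.0% and 56.1% at 12 h, against 4.34% and 8.29% at t0. In WT, ARR8 made up 56.5% at 12 h, against 5.87% at t0.

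**Figure D2:**
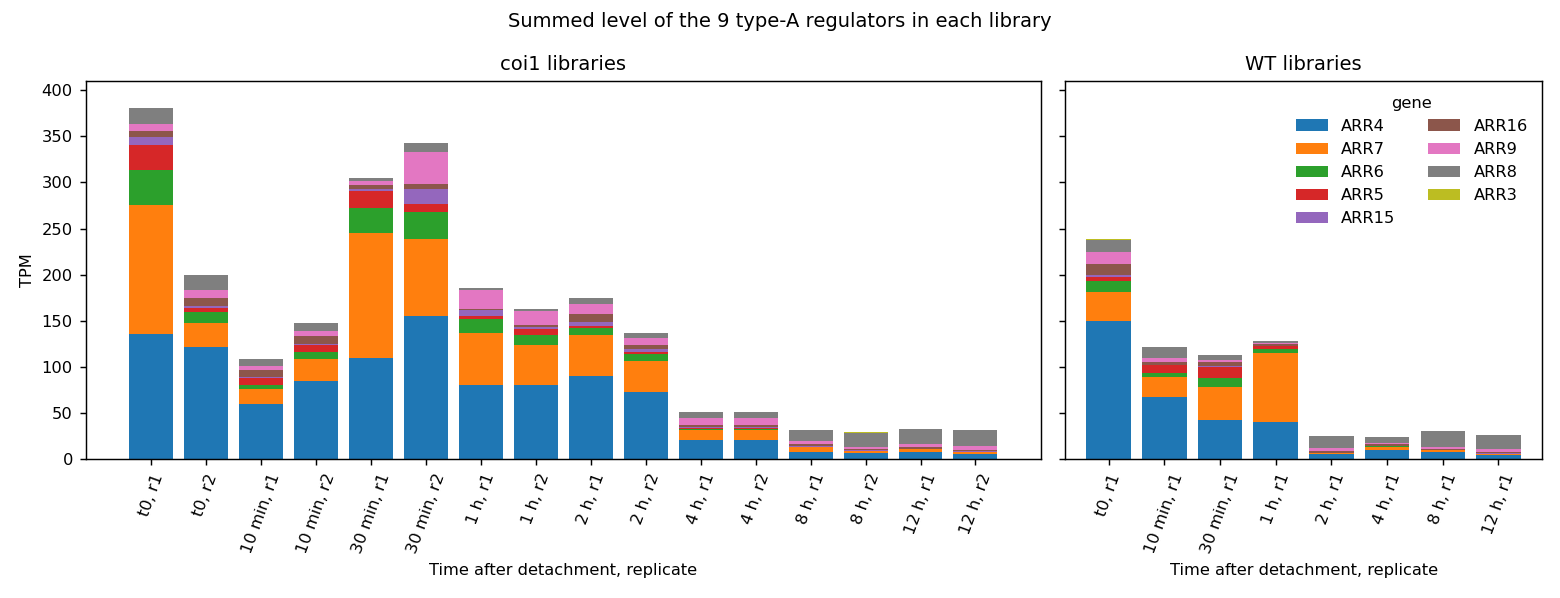
Stacked TPM of the 9 members in each library, coi1 on the left (2 replicates a time, r1 and r2) and WT on the right. The coi1 sums exceed 130 TPM in both libraries at 2 h, when the sum in the library labelled WT 2 h is 24.5 TPM, and ARR8 (grey) makes up 50.0% to 56.5% of the sum at 12 h.

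These courses were tested with limma on log2(TPM + 1) across all genes that reached 1 TPM in 2 or more libraries, with Benjamini-Hochberg adjustment over all genes and a threshold of 0.05. Log2 differences are on that scale, which understates the change of genes near 0, and each is given with its standard error (SE). The 8 members other than ARR3 passed this filter in the coi1 fits. Late against early, all 8 passed the test in coi1, 7 lower and 1 higher, where 50.2% of all 19323 genes passed. ARR6 differed by -3.33 ± 0.24 (adjusted p = 3.82e-06), ARR7 by -3.08 ± 0.37 (9.52e-05), ARR4 by -3.05 ± 0.12 (1.18e-07) and ARR5 by -2.74 ± 0.34 (0.000117). On this scale ARR15, ARR9 and ARR16 fell by less, with differences of -1.62 ± 0.38, -1.31 ± 0.36 and -0.64 ± 0.16. For ARR15, which was near 0 at the late times, the order depends on the scale. Its mean TPM in coi1 was 12.1-fold lower late than early, against 8.27-fold for ARR4 and 10.5-fold for ARR7. For ARR5 and ARR6 the means were 22.5-fold and 27.9-fold lower. ARR8 rose by 1.01 ± 0.17 (adjusted p = 0.0009). The median of the 8 members was -2.18, and the median of all genes was 0.20. After rescaling that brings the median of all genes to 0.00, ARR8 was still higher by 0.80 and ARR16 lower by 0.82. All 8 also passed limma's F test for any difference among the 8 times in coi1, which 58.9% of all genes passed.

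In WT the late and early times were compared with the 3 times of a window as replicates, and ARR15 fell below the filter. Of the 7 members tested, 4 fell and none rose, where 8.07% of all genes passed. The differences were -3.72 ± 0.53 for ARR7 (adjusted p = 0.0136), -2.92 ± 0.35 for ARR5 (0.00815), -2.64 ± 0.32 for ARR6 (0.00855) and -2.63 ± 0.31 for ARR4 (0.00787). ARR8 differed by 1.08 ± 0.67 (adjusted p = 0.36), ARR16 by -0.50 ± 0.21 (0.19) and ARR9 by -0.08 ± 0.37 (0.913), none past the threshold. Without the WT 8 h library only ARR4 passed, and ARR7 also missed the threshold without the WT 30 min or the WT 12 h library.

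Each later coi1 time was also set against t0, and all 7 comparisons share the same t0 libraries. At 10 min 0 of 8 members passed (4 at an unadjusted p below 0.05 in limma), where 0.533% of all genes passed, and at 30 min ARR8 alone passed, lower by 1.26 on the log2 scale, where 9.23% of all genes passed. At 1 h ARR8 (-2.24 ± 0.30, adjusted p = 0.000685), ARR16 (-1.33 ± 0.28, 0.00593) and ARR4 (-0.67 ± 0.21, 0.0343) were lower, where 31.2% of all genes passed. At 2 h ARR4, ARR5, ARR6 and ARR8 were lower, where 25.6% passed. At 4 h 6 members were lower, with ARR9 and ARR15 the exceptions, where 14.0% passed. At 8 h and at 12 h the same 5 were lower, ARR4, ARR5, ARR6, ARR7 and ARR16, where 14.6% and 21.7% of all genes passed. At 12 h ARR6 differed by -4.42 ± 0.41, ARR7 by -4.13 ± 0.64, ARR4 by -4.11 ± 0.21, ARR5 by -3.37 ± 0.59 and ARR16 by -1.42 ± 0.28 (adjusted p = 4.95e-05, 0.00128, 2.22e-06, 0.00257 and 0.00498). ARR8 differed by 0.04 ± 0.30 at 12 h, ARR15 by -1.96 ± 0.66 (adjusted p = 0.0601) and ARR9 by -1.19 ± 0.62 (0.21).

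The t0 and 30 min replicates weigh on the early comparisons. Replicate 1 of coi1 t0 held 26.8, 38.2, 141 and 8.33 TPM of ARR5, ARR6, ARR7 and ARR15, against 4.32, 11.9, 26.0 and 2.06 TPM in replicate 2. Without coi1 t0 replicate 2, 3 members passed at 10 min (ARR5, ARR6 and ARR7, lower), while ARR4 and ARR8 passed as lower at 10 min without either 30 min library. At 30 min, ARR5, ARR6 and ARR7 passed as higher without coi1 t0 replicate 1, and ARR9 and ARR15 passed as higher without coi1 30 min replicate 1. The ARR8 call at 30 min was lost without either library of t0, 10 min, 2 h, 4 h or 12 h. At 2 h, the count of 4 went down to 1 without coi1 t0 replicate 1, either 2 h library or either library of 4, 8 or 12 h, and to 2 without either 1 h library. At 4 h the count of 6 went down to 3 without coi1 t0 replicate 1 and to 2 without either 4 h library. The calls for ARR4, ARR5, ARR6 and ARR7 at 8 h and 12 h were kept whichever single library was left out. With only the 4 libraries compared, however, ARR5 and ARR7 missed the threshold at 8 h (limma, adjusted p = 0.089 and 0.0861) and ARR5 did so at 12 h (0.0685). The ARR16 call was lost at 8 h without replicate 2 of t0 or of 8 h and with the 4 libraries alone. At 12 h it was lost without replicate 2 of 12 h. The ARR4 call at 1 h was lost without either library of t0, 1 h or 4 h. After the rescaling described above, the ARR4 calls at 1 h and 2 h and the ARR8 calls at 30 min and 4 h were lost.

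Set against WT over all 8 times, coi1 leaves held more ARR6 (0.98 ± 0.27, adjusted p = 0.0251), ARR4 (0.96 ± 0.30, 0.0446) and ARR15 (0.90 ± 0.28, 0.0442). These 3 of 8 members passed as higher and none as lower, where 12.5% of all genes passed, and the median over the 8 members was 0.91, against -0.05 over all genes. Over the early times ARR9 (1.75 ± 0.55), ARR15 (1.32 ± 0.40), ARR6 (1.02 ± 0.25) and ARR4 (0.90 ± 0.26) were higher in coi1, where 16.4% of all genes passed. Over the late times 0 of 8 members passed, where 0.732% of all genes passed, and at an unadjusted p below 0.05 limma had 1 member, ARR7, with a difference of 0.90 ± 0.35. The change in the coi1 to WT difference from early to late passed for 0 of 8 members, also at an unadjusted p below 0.05 in limma, where 1.88% of all genes passed. Without the library labelled WT 2 h, 0 of 8 members passed over the remaining 7 times, and the differences were 0.68 for ARR6, 0.56 for ARR4 and 0.75 for ARR15 (limma, adjusted p = 0.0563, 0.0623 and 0.125). With coi1 replicate number 1 alone, the number that WT carries, 0 members passed over all times and 0 over the early times, and with no filter 1 and 2 did. With replicate number added to the fit, ARR6, ARR15 and ARR4 missed the threshold over all times (limma, adjusted p = 0.0623, 0.109 and 0.129). ARR4, ARR9 and ARR15 then missed it over the early times. With a pseudocount of 0.1 in place of 1, ARR6 missed the threshold over the early times (limma, adjusted p = 0.0833). The count over all times also went to 0 without the WT 30 min or WT 1 h library, and to 1 without coi1 10 min replicate 2, coi1 8 h or 12 h replicate 1, or either coi1 library of 1 h, 2 h or 4 h. The early count went to 0 without the WT 30 min or the WT 1 h library, to 1 without coi1 10 min replicate 2 or coi1 1 h replicate 1, and to 2 without coi1 1 h replicate 2, the WT 8 h or 12 h library, or any coi1 library of 4, 8 or 12 h.

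For 7 of the 8 members the difference between genotypes was furthest from 0 at 2 h, and for ARR9 it was furthest at 1 h. The 2 h values all rest on the library labelled WT 2 h, which was most like WT at 12 h over all genes, and without it no 2 h comparison can be made. In it ARR4 was at 4.93 TPM and ARR7 at 1.27 TPM, and in WT at 12 h they were at 4.55 and 1.14 TPM. The part of this library in the 2 h differences was not tested. The comparison at single times was added after the values had been seen; WT has 1 library a time, so its spread is taken to equal that of the coi1 pairs. At 2 h ARR7 had 44.4 and 33.6 TPM in coi1, against 1.27 TPM in WT, a difference of 4.13 ± 0.79 (limma, adjusted p = 0.0059). ARR4 had 89.8 and 72.3 TPM in coi1 and 4.93 TPM in WT, a difference of 3.78 ± 0.26 (1.79e-05). ARR6 had 7.69 and 8.00 TPM in coi1 and 0.06 TPM in WT, a difference of 3.06 ± 0.51 (0.00297). ARR16 had 8.22 and 4.23 TPM in coi1 and 1.90 TPM in WT, a difference of 1.26 ± 0.34 (0.0288) that was lost without coi1 2 h replicate 1. These 4 of 8 passed, all higher in coi1, where 18.8% of all genes passed. ARR8 was the 1 member lower in coi1, at 5.53 and 5.15 TPM, against 12.2 TPM in WT, a difference of -1.06 ± 0.37 that missed the threshold (adjusted p = 0.0743).

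At the other times fewer members passed. The count was 0 of 8 at t0, where 0.445% of all genes passed, at 10 min (0.339%), 4 h (1.55%), 8 h (0.663%) and 12 h (0.471%). At an unadjusted p below 0.05, limma had 1 member at 10 min (ARR16), 1 at 4 h (ARR4) and 0 at the other 3 of these times. At 30 min ARR4 was higher in coi1 (1.61 ± 0.26, adjusted p = 0.00497), where 4.64% of all genes passed; 4 members passed without coi1 30 min replicate 1 and 2 without either t0 library. At 1 h ARR9 (3.08 ± 0.76, 0.023) and ARR4 (1.00 ± 0.26, 0.0258) were higher, where 15.8% passed, and neither did so without either coi1 1 h library. At 4 h both coi1 libraries still lay above the WT library for 8 of 8 members, as they did for 28.9% of all genes. Without the 30 min libraries, whose replicates differ most, 7 of 8 passed at 2 h, 6 higher and ARR8 lower, 4 passed at 1 h, and ARR4 and ARR9 passed at 4 h. Leaving out either 30 min library of coi1 gave the same counts. How many of all genes passed then was not counted, so a gain among the members cannot be told from a gain over all genes. ARR5 passed at t0 without coi1 t0 replicate 2. The 2 h difference was also set against the mean of the other 7 times, a comparison chosen because the 2 h values had been seen to be high, so that its p is no independent support. It was larger at 2 h for ARR7 by 3.49 ± 0.84, for ARR4 by 3.22 ± 0.27 and for ARR6 by 2.38 ± 0.54 (limma, adjusted p = 0.0284, 0.000188 and 0.0229), where 10.0% of all genes passed. Without coi1 2 h replicate 1 only ARR4 passed, ARR6 and ARR7 also missed the threshold without coi1 2 h replicate 2, and ARR7 did so without coi1 4 h replicate 2.

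**Figure D3:**
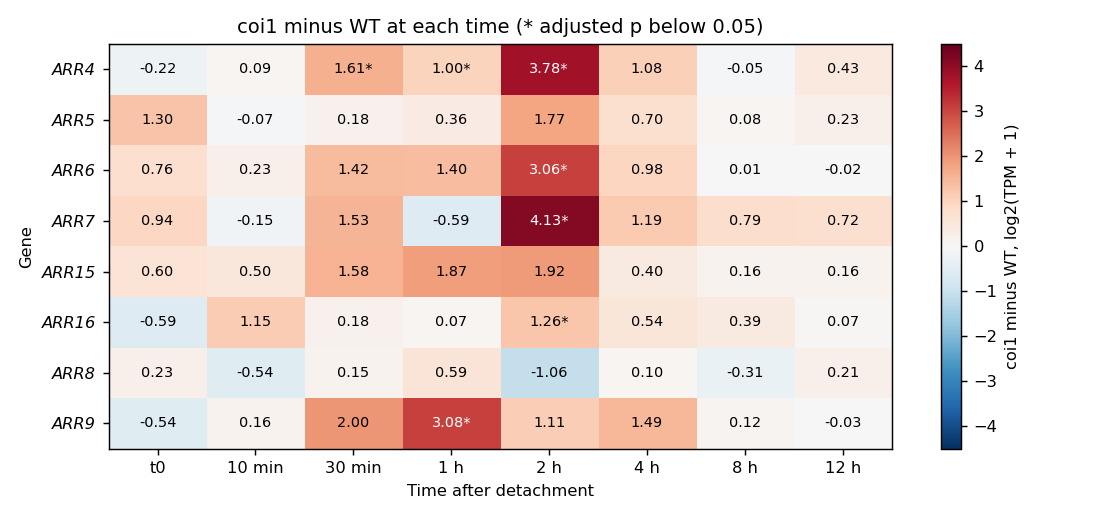
Difference of coi1 minus WT in log2(TPM + 1) for 8 members (rows) at 8 times (columns), red for higher and blue for lower in coi1, with an asterisk where the adjusted p is below 0.05. The highest values are 4.13 for ARR7 and 3.78 for ARR4 at 2 h, which rest on the library labelled WT 2 h, then 3.08 for ARR9 at 1 h and 3.06 for ARR6 at 2 h, and the 8 h and 12 h columns lie between -0.31 and 0.79.

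The members' courses were also set beside each other and beside other genes, as a description over the 16 means of genotype and time. ARR4, ARR5, ARR6 and ARR7 had Pearson r values of 0.90 to 0.97 with each other, whereas ARR8 had values of -0.55 to 0.09 with the other 7. These means share the 24 libraries. Without the library labelled WT 2 h the values were 0.89 to 0.96 and -0.54 to 0.13, and 18 of the 21 pairings of a member with a gene named next were again among the member's 3 highest. Among 13488 genes, those most like ARR4 were DELTA-TIP (AT3G16240), an aquaporin of the vacuolar membrane (r = 0.97), ARR6 (0.97) and DGR2 (AT5G25460, 0.96). ARR7 was most like AT3G06070 (0.98), DELTA-TIP (0.95) and ARR6 (0.94), and ARR6 was most like ARR4 (0.97), AT3G06070 (0.95) and DELTA-TIP (0.95). ARR5 was most like AT1G03220, AT3G08030 and AT1G22890 (each 0.96). ARR8 was most like AT1G72275 (0.96), AT4G09630 (0.95) and AT3G18800 (0.95). ARR9 was most like NPSN12 (0.92), TDT, a vacuolar malate transporter (0.91), and BZIP34 (0.89), and ARR16 was most like VLN3 (0.87), the expansin EXPA1 (0.87) and AT5G11420 (0.85).

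The rest of the cytokinin pathway held genes that rose and genes that fell. Of 59 other pathway genes listed by role, 39 passed the filter in coi1, and late against early 8 of them were higher and 13 lower, a share near the 50.2% of all genes that passed, with a median difference of -0.07 against -2.18 for the members. Among the receptors, AHK4, which also acts in the vasculature, and AHK2 fell, by 0.73 ± 0.09 and 0.36 ± 0.10, while AHK3, the receptor tied to leaf senescence, rose by 0.55 ± 0.08. AHK4 in coi1 was at 0.83 and 0.79 TPM at 12 h, against 3.56 and 4.46 TPM at t0, and AHK3 dipped to 13.1 and 10.9 TPM at 1 h, against 27.1 and 31.1 TPM at t0, the hour at which ARR8 was lowest.

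Among 5 phosphotransfer proteins that passed the filter, 3 rose late against early in coi1 and none fell. Of all genes 50.2% passed there, 7374 higher and 2320 lower. AHP4, which in mutant studies contributed less than AHP1, AHP2, AHP3 and AHP5, rose by 2.96 ± 0.09 (adjusted p = 4.3e-08). It stood at 124 and 125 TPM at 12 h in coi1, against 6.54 and 8.34 TPM at t0, and at 118 TPM at 12 h in WT, against 20.6 TPM at t0. At 2 h AHP4 was at 58.5 and 46.2 TPM in coi1 and at 135 TPM in WT, lower in coi1 by 1.36 ± 0.20 on the log2 scale (adjusted p = 0.0016), and WT at 8 h was at 131 TPM. This and the other pathway values at 2 h rest on the library labelled WT 2 h as well. AHP3 rose by 0.26 ± 0.07, near the median of 0.20 over all genes, and AHP2 did not pass (-0.14 ± 0.08).

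The type-B regulators, which switch on the type-A genes, had 5 genes past the filter. Late against early in coi1, ARR10 rose by 0.63 ± 0.09 and ARR14 by 0.48 ± 0.11. None of the 5 fell, where 50.2% of all genes passed. ARR1 differed by -0.17 ± 0.10 (adjusted p = 0.18). The isopentenyltransferase genes of cytokinin synthesis IPT3 (0.37 ± 0.17), IPT9 (0.17 ± 0.12) and IPT2 (0.12 ± 0.06) did not pass late against early. Of 4 LOG genes, which release the active bases, LOG8 rose by 1.38 ± 0.09. LOG1 and LOG7 fell, by 1.15 ± 0.29 and 0.54 ± 0.13, again where 50.2% of all genes passed. LOG1 peaked in WT at 30 min and 1 h, with 131 and 165 TPM.

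Of 7 degradation and glucosylation genes, 3 fell and none rose late against early in coi1, where 50.2% of all genes passed. Those that fell were CKX4, a cytokinin oxidase that cytokinin induces, by 2.25 ± 0.42, the glucosyltransferase UGT76C2 by 1.66 ± 0.12, and CKX5 by 0.90 ± 0.17. The oxidase gene CKX7 (0.10 ± 0.18, adjusted p = 0.666) and the glucosyltransferase gene UGT76C1 (0.03 ± 0.08, 0.777) did not pass. CKX4 in WT was at 0.60 TPM at 12 h and 104 TPM at 1 h. UGT76C2 at 2 h was at 9.33 and 6.06 TPM in coi1 and at 0.85 TPM in WT, higher in coi1 by 2.21 ± 0.25 (adjusted p = 0.00043). The transporter genes PUP14 and ENT3 fell by 2.22 ± 0.28 and 0.83 ± 0.10, and the exporter gene ABCG14 rose by 0.94 ± 0.12. PUP14 had a brief peak at 10 min, with 854 and 825 TPM in coi1 and 572 TPM in WT.

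The 8 CRF and GATA genes are further transcription factors of the pathway. Of these, 4 fell and none rose late against early in coi1, again a share near the 50.2% of all genes. CRF2 fell by 2.03 ± 0.29 and GNL by 1.68 ± 0.59. At 2 h CRF2 had 49.9 and 44.7 TPM in coi1 and 2.81 TPM in WT, a difference of 3.66 ± 0.63 (limma, adjusted p = 0.0036). CRF3 showed no change late against early in coi1 past the threshold (0.28 ± 0.20). It was at 4.69 and 7.83 TPM in coi1 at 1 h, against 58.6 TPM in WT. Over the 40 pathway genes tested in the comparison of coi1 with WT at 2 h, 5 were higher and 3 lower in coi1, where 18.8% of all genes passed, with a median difference of 0.26, against 1.85 over the 8 members and -0.12 over all genes.

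**Figure D4:**
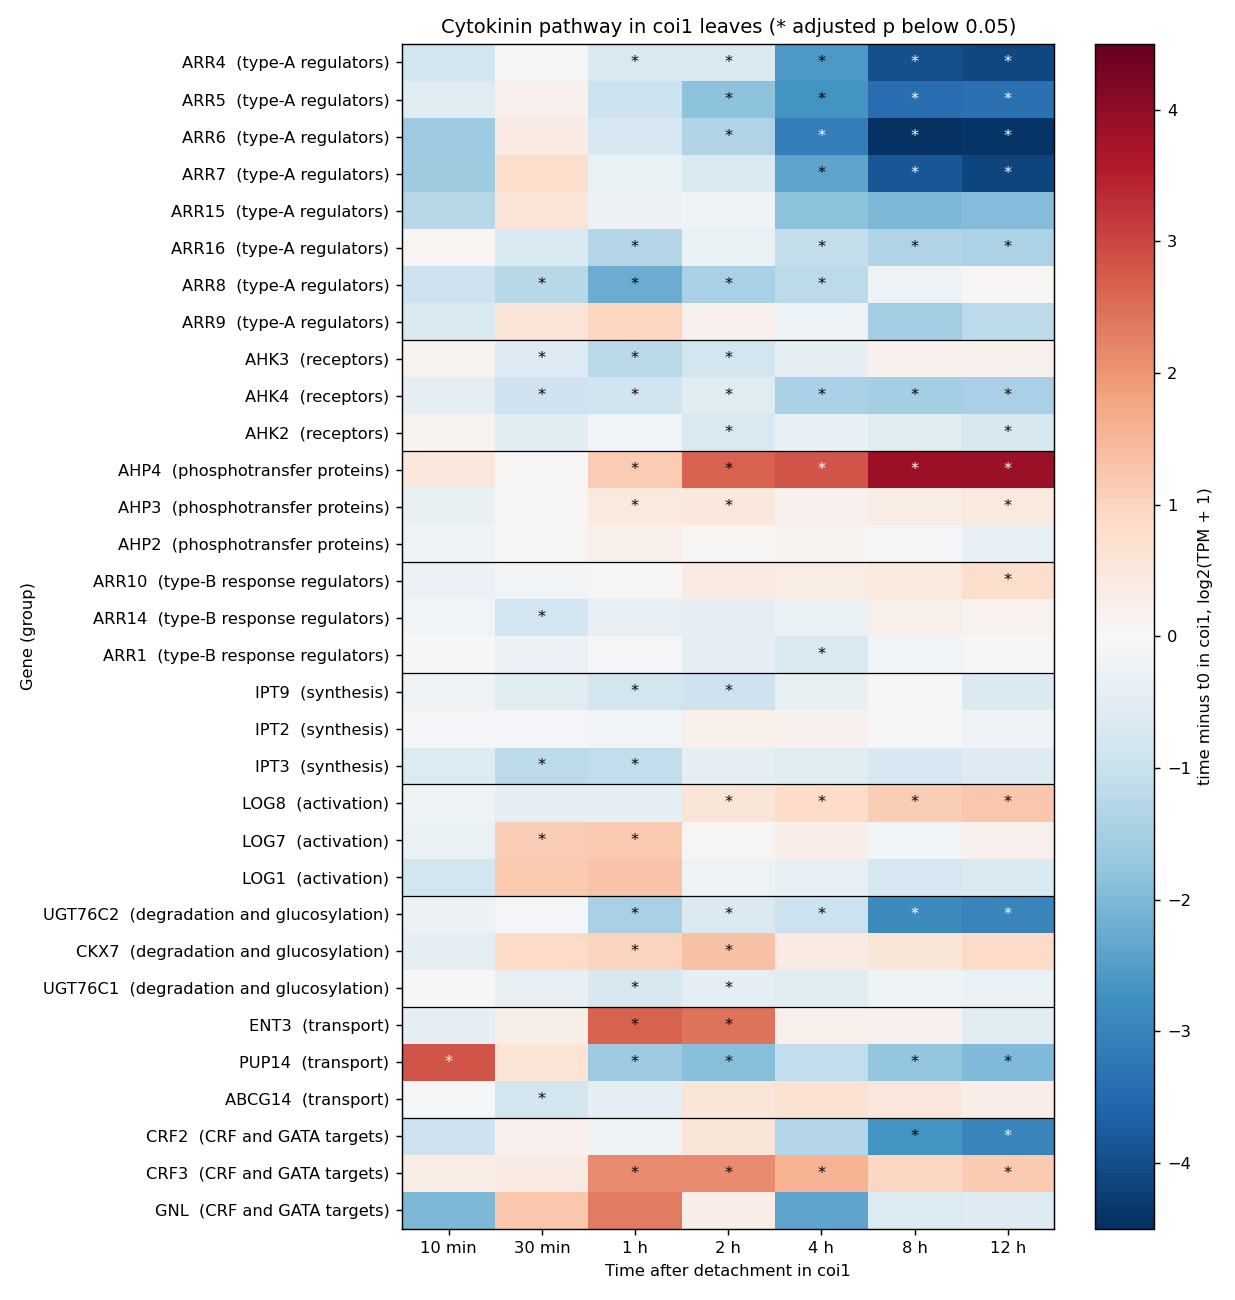
Difference of each time minus t0 in coi1, in log2(TPM + 1), for 8 type-A regulators (top) and for up to 3 genes of each other group of the pathway, with an asterisk where the adjusted p is below 0.05. The rows of ARR4, ARR5, ARR6 and ARR7 are blue at 10 min and 2 h (-1.62 and -1.35 for ARR6) and deepest blue from 4 h on. ARR6 is at -4.44 at 8 h and -4.42 at 12 h, while AHP4 reaches 3.90 at 12 h.

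In whole explants, fewer cells of a type and less transcript per cell cannot be told apart. Vascular markers summed to 132 to 164 TPM at the late times and 75.6 to 181 TPM at the early times in coi1, and to 153 to 251 TPM late and 79.2 to 160 TPM early in WT. SUC2, at 51.9 to 206 TPM, made up most of these sums. In coi1 PXY was higher late, at 9.20 to 15.7 TPM, against 3.76 to 8.97 TPM early, while ATHB8, WOX4, SUC2 and APL overlapped. In WT PXY, ATHB8 and WOX4 were higher late without overlap, and SUC2 and APL overlapped. The share of all genes that separate late from early in this way was not counted in either genotype. Stomatal lineage markers summed to 28.8 to 45.6 TPM late and 24.3 to 44.5 TPM early in coi1, and to 41.4 to 43.8 TPM late and 30.3 to 35.8 TPM early in WT. All 5 vascular and 6 stomatal markers reached 1 TPM in some library of each genotype, and their part in the members' fall was not tested.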

How the data were processed

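RNA of whole leaf explants was measured in 24 libraries, 16 of coi1 and 8 of WT. Processing by the authors involved STAR 2.7.2b, RSEM 1.3.2, Trim Galore 0.5.0 and TAIR10, per the submitters' processing notes. The deposited tables hold TPM per locus, per the labels' file descriptions, and each library's column has the same total. The annotation, strandedness and read depth are not given in the sources used here. A further 8 columns of the WT table match no sample and were not used.

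Tests were limma 3.58.1 (R 4.3.3) moderated tests with trend on log2(TPM + 1), over genes that reached 1 TPM in 2 or more libraries, with Benjamini-Hochberg adjustment. The coi1 fit had a mean per time; genotype fits had time as a factor. The script was tested on simulated data. P-values weigh a difference against the spread between these libraries. In the fits within coi1 and at single times, that spread is between the coi1 replicates. In the WT fit it is between the times of a window. In the genotype fits over several times it also holds genotype differences that vary with time. The members and gene lists were chosen with earlier results of these data known. All members are named, as are up to 3 genes per pathway group with the smallest p of the coi1 F test and a group mean of at least 5 TPM, and the 3 genes most alike to a member that reached 10 TPM; CKX4 and CKX5 were named after their values were seen. Pearson r between whole libraries was computed on log2(TPM + 1) over genes that passed the same filter across all 24 libraries. The comparisons at single times, and the one of 2 h with the other times, were also chosen after the values were seen. Promoter windows came from TAIR10.1 through locus tags; 37390 of 37686 loci and all 91 listed symbols were found in the reference. Alternatives were a pseudocount of 0.1, no filter, a filter of 5 TPM, median-of-ratios rescaling, a replicate block, the 4 compared libraries alone, and leaving out each library.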

Additional observations from a re-analysis of the deposited data

Results flagged for a closer look

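For 3 members the difference between coi1 and WT at 2 h was larger than at the other times. The 2 h time was picked because its values had been seen to be high, so the p-values describe that choice and are no independent support. The test of a change in the difference from early to late times passed for 0 of 8 members, also at an unadjusted p below 0.05 in limma. For ARR4, coi1 minus WT at 2 h was larger than the mean over the other 7 times by 3.22 ± 0.27 (SE, log2 scale, limma adjusted p = 0.000188). For ARR7 the gap was 3.49 ± 0.84 (0.0284) and for ARR6 it was 2.38 ± 0.54 (0.0229). Both coi1 libraries were above the single WT library at 2 h for all 3. The 2 h value of WT rests on 1 library, so the time and that library cannot be told apart. Across all genes that library had an r of 0.986 with WT at 12 h and 0.974 with WT at 8 h, against 0.838 with WT at 1 h and 0.914 with WT at 4 h. Its levels of ARR4, ARR6 and ARR7, 4.93, 0.06 and 1.27 TPM, were near those of WT at 12 h, 4.55, 0.06 and 1.14 TPM. Without it the comparison cannot be made. ARR6 and ARR7 missed the threshold without either coi1 2 h library. The 10 most abundant genes took 12.7% and 12.8% of the TPM in the coi1 2 h libraries and 9.19% in the WT 2 h library, whereas the other WT libraries had 9.33% to 12.0%; the part of this in the result was not tested.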

How the results depend on the processing

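Counts below are members that passed, of 8 unless stated. Of the alternatives, the number of all genes that passed was counted only for the rescaling. The late against early result in coi1 kept all 8 under every alternative and every left-out library. With no filter, the count was 1 at 2 h against t0 in coi1, 1 for coi1 against WT over 8 times and 2 over the early times. Median-of-ratios rescaling gave 0 at 30 min against t0. Under it ARR4 missed the threshold against t0 at 1 h and 2 h, and ARR8 did so at 4 h (limma, adjusted p = 0.146, 0.0587 and 0.055). The rescaling also took the share of all called genes that were higher late against early in coi1 to 51.4%, against 76.1%. With only the 4 libraries compared, coi1 against t0 gave 0 at 30 min, 1 at 2 h and 3 at 8 h. Replicate numbers did not pair libraries evenly over the times. Over 28 pairs of times in coi1, the differences of replicate 2 from replicate 1 had r of -0.32 to 0.50, 7 over 0.1. The r was 0.50 for 1 h with 2 h and 0.20 to 0.31 among t0, 10 min and 30 min. For 30 min with 1 h and with 2 h it was -0.32 and -0.30. With the replicate block, coi1 against WT gave 0 over 8 times and 1 over the early times; with coi1 replicate number 1 alone, 0 and 0. Without the 30 min libraries, an alternative chosen after seeing the data, the counts were 2 at 10 min against t0, 0 for coi1 against WT over 8 times, 1 over the early times, and 4, 7 and 2 at 1 h, 2 h and 4 h. Leaving out each library gave, for coi1 against t0, a count of 0 to 3 (10 min and 30 min), 2 to 4 (1 h), 1 to 4 (2 h), 2 to 7 (4 h), 4 to 7 (8 h and 12 h), 6 to 8 for the F test, and 1 to 4 of 7 for WT late against early. For coi1 against WT it gave 0 to 4 over 8 times and over the early times, 0 to 1 (t0), 1 to 4 (30 min), 0 to 4 (1 h), 3 to 7 (2 h), 0 to 2 (4 h), 1 to 4 for 2 h against the other times, and 0 over the late times, for the change from early to late and at 10 min, 8 h and 12 h. Fewer libraries leave fewer degrees of freedom; beyond that, the cause was not tested. No called difference changed sign. With a pseudocount of 0.1, ARR15 also passed against t0 at 4, 8 and 12 h in coi1, and ARR5 passed for coi1 against WT at 2 h. At that pseudocount ARR6 missed the threshold at 2 h against t0 in coi1 and for coi1 against WT over the early times (limma, adjusted p = 0.0738 and 0.0833). Read depth is unknown, so values near 0 carry an error that cannot be given.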
